A study of Mus musculus with 24 samples.

Results

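RNA of the aorta was sequenced in 3 libraries from mice that carry a SENCR bacterial artificial chromosome (BAC), a large piece of genomic DNA added to the mouse genome. These 3 of 24 libraries were chosen by the tissue in their titles, and were set against heart, lung, stomach, kidney, spleen, liver and brain of the same kind of mice, 3 libraries each. Every group carried the transgene, the labels named no animals without it, and they gave no age, strain or sex and no link between libraries of the same animal. SENCR, a long non-coding RNA transcribed from the strand opposite to FLI1, had 59.4, 25.1 and 40.9 FPKM in aorta libraries, and between 1.198 and 102 FPKM, median 17.9, in the 21 others. The unit, FPKM, divides a gene's fragments by its length and by the library's total. Values were deposited under human gene symbols, because the mouse reads were mapped on a human build. A gene's level therefore depends on how much of its sequence both species share, and levels are compared between tissues within a gene. The aorta markers ACTA2, SFRP2, TWIST1 and SMTN were chosen with earlier results of these data known, so they are no independent check of the tissue labels. All 4 were higher in aorta than in each of the 7 other tissues.

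The aorta is an elastic artery. Its middle layer stacks smooth muscle cells between sheets of elastin and fibrillin, its inner surface is lined by endothelium, and its outer layer holds fibroblasts, collagen, nerves and fat. Smooth muscle cells contract through actin and myosin under control of serum response factor, and they also secrete and repair the matrix that lets the vessel stretch and recoil, much of it under transforming growth factor beta (TGF-beta) signals. In whole tissue, fewer cells of a type and less RNA per cell cannot be told apart.

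Aorta libraries held between 414367 and 430269 assigned reads, and the other libraries between 193900 and 642307, numbers that the smallest steps between FPKM values gave back. A gene seen in 1 library alone was counted there as 1 read. At this depth a gene with no read in a library may still have had up to 3 reads, a limit that covers counting error only. Aorta replicates 1 and 3 stood apart from replicate 2. Mitochondrially encoded genes had 363 reads in replicate 1, 6 in replicate 2 and 216 in replicate 3, against 1 to 19 in the other 21 libraries. Replicate 1 also held 469 genes seen in that library alone, replicate 2 held 44 and replicate 3 held 109, against 17 to 76 in the others. Results are therefore also given with aorta replicate 2 as the only aorta library, a fit in which its spread is taken to be that of the other tissues. P-values measure the spread between these libraries.

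**Figure D1:**
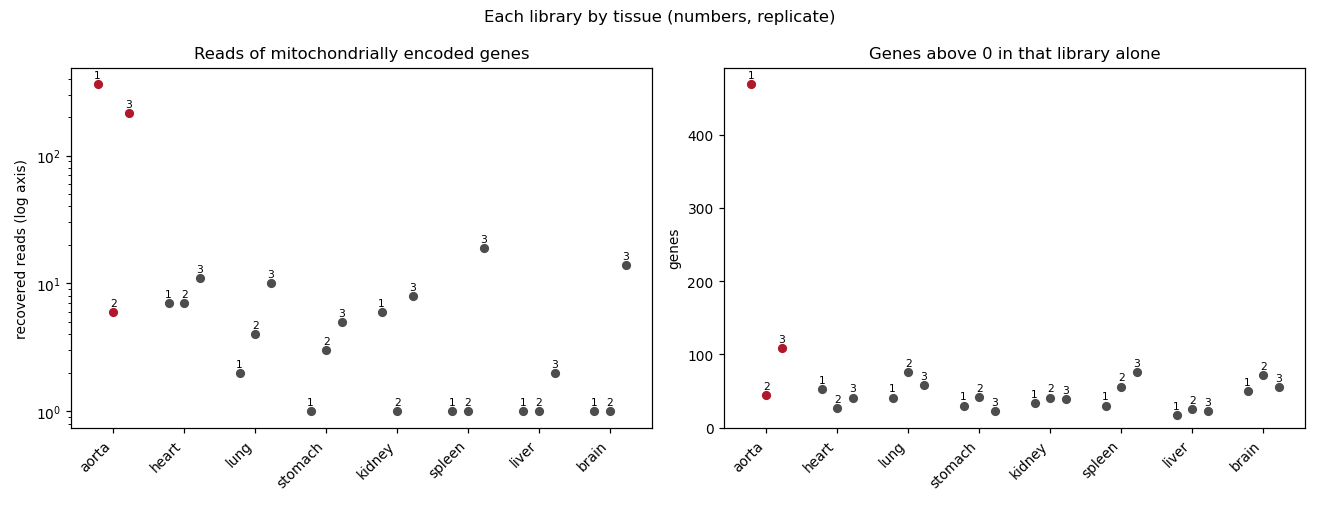
Recovered reads of mitochondrially encoded genes (left, log axis) and number of genes above 0 in that library alone (right) for each of 24 libraries, by tissue, with aorta in red and the replicate number beside each point. Aorta replicates 1 (363 reads, 469 genes) and 3 (216 reads, 109 genes) lie above the other 21 libraries in both panels, and aorta replicate 2 (6 reads, 44 genes) lies among them.

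Genes were tested on log2(FPKM + 1), a scale on which the change of low genes is understated, as aorta against the mean of the other 7 tissue means. A call needed both a limma adjusted p below 0.05 and a shift of 1 or more on that scale. Of 4260 genes tested, 408 (9.58%) were higher in aorta and 349 (8.19%) lower, and the median difference over all genes was -0.18. Among the 408, the aorta mean was the highest of the 8 tissues for 249. In 70 genes (1.64%) aorta was higher than each of the 7 tissues in a test of its own, and in 109 (2.56%) all 3 aorta libraries lay above all 21 others. With replicate 2 as the only aorta library, 288 genes were higher (6.76%) and 248 lower (5.82%), and 41 (0.962%) were higher than each. Those 288 included 242 of the 408, and those 41 included 37 of the 70. The balance of calls depended on the scaling: higher genes were 53.9% of all calls here, 42.2% after rescaling to TPM, which moved the median difference to -0.28, 40.3% after mitochondrially encoded genes had been taken out and libraries set to equal sums, 54.5% after quantile normalization, and 61.9% after median-ratio scaling, with a median difference of -0.09. The filter asked for 1 FPKM in 3 libraries, so 134 genes passed through aorta alone, among them 51 of the 408 and 21 of the 70, and the filter itself favoured calls of higher among these.

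Lung had the fewest genes called against aorta, and brain the most. Aorta was higher than lung in 198 genes (4.65%) and lower in 362 (8.50%), whereas between aorta and brain 548 were higher (12.9%) and 1035 lower (24.3%). Lung was also the next tissue for 28 of the 70 genes that were higher than in each tissue, ahead of stomach (13), heart (12), kidney (5), brain (5), liver (3) and spleen (2). The remaining 2, FOXC2 and SMOC1, were listed at 0 in all 21 other libraries.

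**Figure D2:**
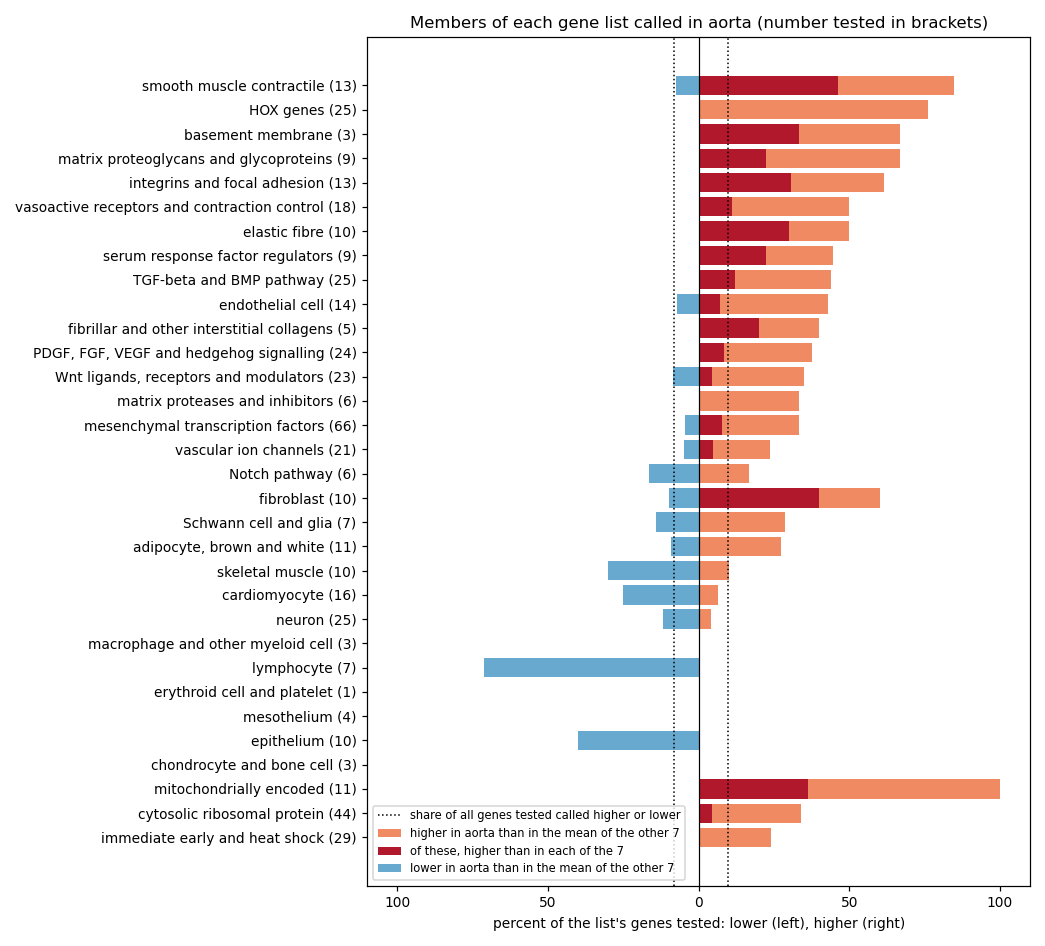
For each gene list, the percent of its tested genes that were called higher (orange, right; dark red, higher than in each of the 7 tissues) or lower (blue, left) in aorta than in the mean of the other 7 tissues; dotted lines show the share of all 4260 genes called, 9.58% higher and 8.19% lower. Smooth muscle contractile genes (11 of 13) and HOX genes (19 of 25) have the largest shares called higher among the vessel wall lists, and no HOX gene was higher than in each tissue.

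Contractile proteins of smooth muscle had the largest share of members higher in aorta among the vessel wall lists. Of 23 genes listed, 17 were in the table and 13 were tested. Among the 13, 11 were higher, 6 of these in each of the 7 comparisons, and DES was lower. The shares over all genes were 9.58% higher, 1.64% higher than in each tissue and 8.19% lower. The same shares apply beside the counts of the later lists. The median difference was 2.74, against -0.18 over all genes, and 1 of the 13 was tested through aorta alone. With replicate 2 as the only aorta library the counts were again 11 and 1. Against single tissues, 8 of the 13 were higher in aorta than in stomach and 2 lower (10.8% and 10.5% of all genes). Against lung 9 were higher and 1 lower (4.65% and 8.50%), and against heart 10 were higher and 2 lower (16.2% and 6.50%).

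ACTA2, the actin of vascular smooth muscle, had 53.3, 47.6 and 44.0 FPKM in aorta libraries, against 1.89, 4.99 and 2.05 in stomach, the next tissue. All 3 aorta libraries lay above the other 21, most of which were at 0 (difference 5.24, SE 0.22, limma adjusted p = 4.08e-13). ACTG2, the actin of enteric smooth muscle, had 53.0, 55.7 and 75.6 FPKM in aorta and 212, 192 and 165 in stomach, so aorta came behind stomach, while exceeding the 7-tissue mean (3.99, limma adjusted p = 1.07e-07). These actins and ACTC1 are nearly identical, and how the counting split their reads is uncertain.

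SMTN, which encodes smoothelin, a protein bound to actin in contractile smooth muscle, had 94.4, 83.4 and 135 FPKM in aorta, against 52.1, 32.7 and 35.1 in heart. MYH11, the smooth muscle myosin heavy chain, had 38.8, 34.8 and 46.5 FPKM in aorta libraries, and between 2.40 and 29.4 FPKM, median 13.04, in the others. For both, all 3 aorta libraries lay above all 21 others. The difference to the mean of the other tissue means was 3.62 (SE 0.36) for SMTN and 1.86 (SE 0.23) for MYH11 (limma adjusted p = 1.42e-07 and 3.27e-06). MYH11 averaged 40.0 FPKM in aorta and 23.5 in spleen, its next tissue, and was not called against spleen alone. MYLK, the kinase that starts contraction by phosphorylating myosin light chains, averaged 21.4 ± 6.39 FPKM in aorta and 6.41 ± 4.76 in lung (SD, n = 3; 3.31, limma adjusted p = 2.75e-08). The essential light chain MYL6 had 54659.8, 62211 and 57752 FPKM in aorta, against 28740.1, 26296 and 25459.6 in stomach, without overlap (difference 2.74, SE 0.08, limma adjusted p = 5.12e-15). MYL9, the regulatory light chain, was low at 2.59, 1.67 and 0.866 FPKM in aorta, from 3, 2 and 1 reads, and passed with a difference of 1.29 (limma adjusted p = 4.03e-05). MYL9 would not have passed the filter without aorta libraries, so its call follows in part from the filter.

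Cytoskeletal linkers were also higher. ACTN1, an actin crosslinker of focal adhesions, had 326, 430.1 and 423 FPKM in aorta libraries, and between 10.1 and 79.1 FPKM, median 19.5, in the others, a gap of several fold with no overlap (difference 3.71, SE 0.22, limma adjusted p = 6.99e-11). VCL, vinculin, had 206, 229.9 and 283 FPKM in aorta and 134, 138 and 152 in lung (2.59, limma adjusted p = 1.04e-08). TPM2, a tropomyosin, had 10.8, 27.1 and 32.4 FPKM in aorta, against 6.12, 16.2 and 11.6 in stomach, with overlap (3.43, limma adjusted p = 1.05e-06). TPM1, its relative, was called (1.76, limma adjusted p = 7.14e-08) at 1050.3 ± 91.5 FPKM in aorta, against 19876 ± 1094 in heart (SD, n = 3). DES, desmin, the intermediate filament of striated and visceral muscle, had 1.07, 0 and 0 FPKM in aorta and 13.8, 16.1 and 24.1 in heart (-1.07, limma adjusted p = 0.00697). Its call was lost when heart or 1 of 2 aorta libraries was left out: the difference was -0.60, adjusted p = 0.106 without heart, -0.89, adjusted p = 0.0665 without aorta replicate 2 and -0.89, adjusted p = 0.068 without aorta replicate 3.

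**Figure D3:**
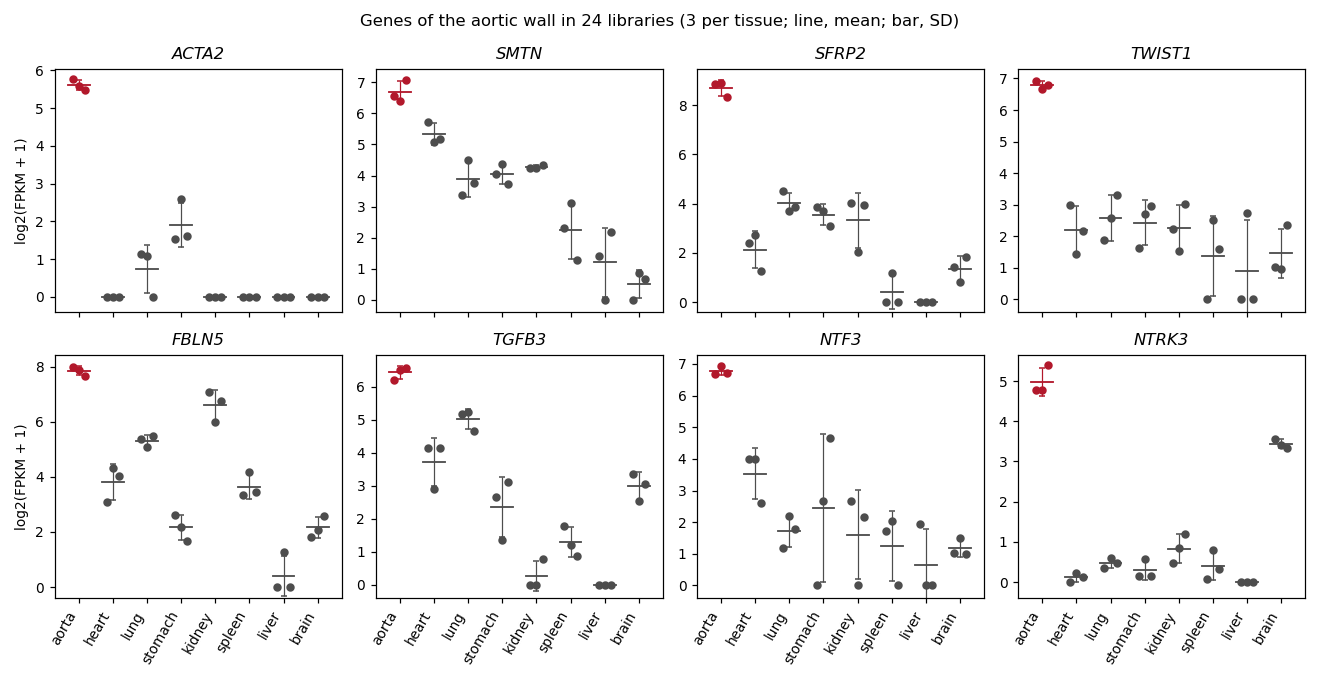
Level of 8 genes on the log2(FPKM + 1) scale in each of 24 libraries, aorta in red and the other tissues in grey, with the mean (line) and SD (bar) of 3 libraries. The 3 aorta libraries lie above all 21 others in every panel; the next tissue is stomach for ACTA2, lung for SFRP2, TWIST1 and TGFB3, heart for SMTN and NTF3, kidney for FBLN5 and brain for NTRK3.

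Serum response factor binds a 10-base element called the CArG box. In mouse RefSeq promoter windows of 250 bases before to 50 after the start (build GRCm38.p6), the box was searched as CCWWWWWWGG, with W for A or T. This palindromic pattern covers both strands in 1 search. No other letter was allowed, so variants of the box were not counted, and a window without a match, such as that of ACTA2, may hold one. It stood in 3 of 11 smooth muscle genes that were tested and had a window (27.3%), MYL6, MYL9 and VCL, and in 7 of 44 genes higher than in each tissue (15.9%). The same was true of 59 of 3212 tested genes with a window (1.84%) and of 488 of 27025 genes in the whole RefSeq table (1.81%). A match describes the letters only, and their binding was not measured. Windows of 4 of the 7 genes that were higher in aorta than in each tissue and had a match are shown. DMD, DNM3OS and FILIP1 are the others. A gene counted as matched when any of its windows held the box, and Myl6, Fhl1 and Filip1l each have a further window without it. The call of MYL9 rests on few reads and follows in part from the filter, as given above. Lower case is the window 5′ to 3′ on the gene's strand and capitals mark the CArG box. The box begins 50 bases before the start in Myl6, 161 in Myl9, 102 in Fhl1 and 62 in Filip1l. The windows lie at chr10:128492960-128493259, minus strand (Myl6), chr2:156775214-156775513, plus strand (Myl9), chrX:56779433-56779732, plus strand (Fhl1) and chr16:57548992-57549291, plus strand (Filip1l).
Myl6: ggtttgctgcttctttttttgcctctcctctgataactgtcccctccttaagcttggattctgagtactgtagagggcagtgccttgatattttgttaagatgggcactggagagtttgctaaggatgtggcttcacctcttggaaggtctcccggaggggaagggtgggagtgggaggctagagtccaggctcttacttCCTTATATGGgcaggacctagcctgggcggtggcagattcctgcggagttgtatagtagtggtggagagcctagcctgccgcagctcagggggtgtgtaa
Myl9: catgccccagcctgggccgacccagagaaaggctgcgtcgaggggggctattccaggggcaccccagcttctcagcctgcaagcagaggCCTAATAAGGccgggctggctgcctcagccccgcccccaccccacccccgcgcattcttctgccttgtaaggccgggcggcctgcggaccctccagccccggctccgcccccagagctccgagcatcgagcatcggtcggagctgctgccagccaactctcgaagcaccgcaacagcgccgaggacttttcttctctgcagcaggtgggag
Fhl1: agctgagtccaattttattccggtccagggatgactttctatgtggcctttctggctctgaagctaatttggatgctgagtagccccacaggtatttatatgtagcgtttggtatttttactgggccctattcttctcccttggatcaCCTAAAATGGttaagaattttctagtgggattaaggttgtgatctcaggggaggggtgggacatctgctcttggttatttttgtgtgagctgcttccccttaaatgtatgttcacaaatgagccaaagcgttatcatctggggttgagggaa
Filip1l: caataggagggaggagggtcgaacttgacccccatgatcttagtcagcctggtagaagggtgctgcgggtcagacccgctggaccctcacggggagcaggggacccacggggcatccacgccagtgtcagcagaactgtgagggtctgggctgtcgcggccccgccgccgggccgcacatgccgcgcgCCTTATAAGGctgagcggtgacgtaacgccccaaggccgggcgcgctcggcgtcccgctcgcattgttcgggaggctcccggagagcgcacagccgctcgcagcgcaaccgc

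Of 9 tested regulators and cofactors of serum response factor, of 19 listed and 16 in the table, 4 were higher and none lower (9.58% and 8.19% of all genes). Their median difference was 0.60. FHL1, a LIM protein of muscle, had 3187, 3612 and 4119 FPKM in aorta, against 1968, 1887 and 1538 in stomach. Aorta was above all other libraries (difference 3.85, SE 0.19, limma adjusted p = 3.39e-12). CSRP2, a smooth muscle LIM protein, had 15.9, 15.4 and 7.97 FPKM in aorta and 0, 3.31 and 4.08 in stomach (3.34, limma adjusted p = 1.53e-05). SRF itself was at 161, 192 and 216 FPKM in aorta, and between 62.9 and 289.5 FPKM, median 123, in the others, a difference of 0.60 that stayed under 1. KLF4 (1.74, limma adjusted p = 0.00203) and TEAD1 (1.54, limma adjusted p = 0.00178) were higher in aorta than in the mean of the others. KLF4 averaged 31.2 ± 7.46 FPKM in aorta and 227 ± 26.7 in stomach, and TEAD1 31.6 ± 4.35 in aorta and 66.1 ± 20.4 in lung (SD, n = 3), so each had a tissue above aorta. With replicate 2 as the only aorta library the calls of KLF4 (1.51, limma adjusted p = 0.167) and TEAD1 (1.35, 0.158) were lost. FILIP1L, whose window is shown above and whose protein is related to a regulator of filamin, was at 138, 212 and 323 FPKM in aorta, and between 0.251 and 97.6 FPKM, median 15.5, in the others (3.64, limma adjusted p = 1.89e-09). FILIP1L was chosen for display after its values were seen.

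Control of contraction was represented by 18 tested genes, of 58 listed and 26 in the table, of vasoactive receptors, cyclic GMP signalling and the RhoA pathway. Of these 9 were higher and none lower (9.58% and 8.19% of all genes), with a median difference of 0.99. Among the 9, 2 passed the filter through aorta alone. PPP1R12A, the subunit that directs myosin phosphatase to myosin, had 398, 433 and 517 FPKM in aorta, against 98.2, 127 and 50.7 in stomach, its next tissue. PRKG1, the cyclic GMP kinase that relaxes smooth muscle, had 23.5, 17.9 and 39.9 FPKM in aorta and 6.92, 11.7 and 11.3 in lung. Both were higher in aorta than in each tissue, without overlap (PPP1R12A difference 3.02, SE 0.18, limma adjusted p = 8.88e-11; PRKG1 difference 2.80, SE 0.33, limma adjusted p = 1.30e-06). ROCK1, the kinase that inhibits that phosphatase, had 11.7, 19.9 and 12.01 FPKM in aorta and 8.50, 7.70 and 15.1 in spleen (1.81, limma adjusted p = 2.94e-05). RHOA, which activates that kinase, averaged 1007 ± 42.3 FPKM in aorta and 1354 ± 281 in lung (SD, n = 3) and differed by 0.67.

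Several receptors were among them. The natriuretic peptide receptors NPR1 and NPR2 make cyclic GMP. NPR1 had 3.95, 3.27 and 1.13 FPKM in aorta and 2.03, 2.36 and 1.46 in lung (1.44, limma adjusted p = 1.02e-04). NPR2 had 26.5, 16.1 and 26.5 FPKM in aorta and 19.4, 26.6 and 25.3 in lung (1.62, limma adjusted p = 0.00293). The serotonin receptor HTR2A was at 2.17, 3.35 and 2.61 FPKM in aorta and 0.621, 3.37 and 5.16 in brain (1.52, limma adjusted p = 5.35e-05). PDE5A, which degrades cyclic GMP, was at 3.23 ± 1.04 FPKM in aorta and 6.56 ± 0.741 in lung, and was called on the mean of the others (1.36, limma adjusted p = 3.76e-04). With replicate 2 as the only aorta library 5 of the 9 were called again (HTR2A, NPR1, PRKG1, ROCK1 and PPP1R12A). HTR1B, with 2, 0 and 4 reads, had a difference of -0.15 there, and was also lost without aorta replicate 1 (0.98, adjusted p = 0.0689) or 3 (0.61, adjusted p = 0.185), as was ARHGEF1 (1.29, adjusted p = 0.0742, and 0.78, adjusted p = 0.253).

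Of 21 tested ion channel and calcium handling genes, from 46 listed and 28 in the table, 5 were higher and 1 lower. Among all genes 9.58% were higher and 8.19% lower, so the 1 lower gene is below that share. The median difference of the list was 0.36. KCNMA1, the large-conductance calcium-activated potassium channel, had 7.38, 8.19 and 14.1 FPKM in aorta and 15.3, 17.7 and 18.7 in brain (2.32, limma adjusted p = 5.60e-09), so aorta came second. The calcium channel subunits CACNA2D1 (1.70, limma adjusted p = 2.52e-05) and CACNB2 (1.14, limma adjusted p = 0.0019) were higher than the mean of the others. CLCN3, an endosomal chloride transporter, was lower, at 7.80, 5.72 and 6.25 FPKM in aorta, and between 6.52 and 76.7 FPKM, median 31.9, in the others (-1.95, limma adjusted p = 1.58e-05). The call of CACNB2 was lost without aorta replicate 1 (0.99, adjusted p = 0.0235). ITPR1, an inositol trisphosphate receptor (1.05, limma adjusted p = 0.0199), was lost when any of the 3 aorta libraries was left out, with differences of 1.06, 1.10 and 0.98 without replicates 1, 2 and 3.

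Elastic fibre genes were partly measured, and those called were all higher. Of 24 genes, 15 were in the table and 10 were tested, 4 of them through aorta alone. Among the 10, 5 were higher and none lower (9.58% and 8.19% of all genes), and the median difference was 1.10. ELN, elastin itself, was not analysed here; with replicate 2 alone 6 of the 10 were higher. FBLN5, fibulin-5, which guides elastin onto microfibrils, had 255, 236 and 204 FPKM in aorta, against 134, 62.3 and 106 in kidney. All aorta libraries were above the other 21, and it was higher than in each tissue (difference 4.41, SE 0.29, limma adjusted p = 4.66e-10). LTBP1, which stores latent TGF-beta on fibrillin, had 17.4, 18.8 and 24.4 FPKM in aorta and 3.76, 3.20 and 2.70 in lung, several fold apart (difference 3.44, SE 0.33, limma adjusted p = 1.01e-07). Its relatives LTBP3 (8.47, 10.6 and 5.49 FPKM in aorta) and LTBP4 (1.77, 2.99 and 4.43) were called as well, with differences of 2.32 and 1.34 (limma adjusted p = 8.53e-06 and 0.00749), and LTBP4 was lost without aorta replicate 3 (1.11, adjusted p = 0.0722). LOXL1, a lysyl oxidase that crosslinks elastin, had 6.48, 11.7 and 2.43 FPKM in aorta and 0.728, 2.03 and 2.79 in lung, with overlap (2.53, limma adjusted p = 2.92e-07).

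Of the collagen and collagen-processing genes 5 of 27 could be tested (14 were in the table), 3 of them through aorta alone. Among the 5, 2 were higher (9.58% of all genes), with a median difference of 0.44. COL1A1, the main chain of type I collagen, had 165, 194 and 186 FPKM in aorta, against 27.4, 46.5 and 43.7 in lung. It was higher than in each tissue without overlap (difference 4.48, SE 0.26, limma adjusted p = 6.69e-11). SERPINH1, the collagen chaperone, rested on aorta replicate 1, with 7, 0 and 1 reads in the 3 libraries, and its difference of 1.06 (limma adjusted p = 0.0159) became -0.23 with replicate 2 alone. In basement membrane, 3 of 25 genes were tested (13 in the table) and 2 were higher. COL4A5, a type IV collagen chain, had 11.6, 8.01 and 11.98 FPKM in aorta and 7.77, 9.99 and 7.73 in lung (2.18, limma adjusted p = 4.51e-07). SMOC1, a calcium-binding basement membrane protein, had 1.29, 2.49 and 1.94 FPKM in aorta from 2, 4 and 3 reads and 0 in every other library. Since SMOC1 passed the filter through aorta alone, its call follows in part from the filter.

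Matrix glycoproteins and proteoglycans were mostly higher where they could be tested. Of 41 genes 18 were in the table and 9 were tested, 2 through aorta alone, and 6 were higher, with a median difference of 2.15. SPARC, which binds collagen, had 678, 579 and 687 FPKM in aorta, against 349.8, 428 and 354 in lung, without overlap (difference 2.68, SE 0.20, limma adjusted p = 3.63e-09). ASPN, asporin, a small leucine-rich proteoglycan that binds TGF-beta, had 17.6, 22.6 and 23.4 FPKM in aorta and 8.30, 3.65 and 17.997 in stomach, where 1 library reached the aortic level (3.10, limma adjusted p = 1.99e-06). FN1, fibronectin, had 21.4, 21.96 and 43.6 FPKM in aorta, and between 0 and 13.9 FPKM, median 2.73, in the others (2.91, limma adjusted p = 1.11e-06). OMD, osteomodulin (2.15, limma adjusted p = 1.83e-05), TNC, tenascin-C (1.39, limma adjusted p = 9.03e-07), and THBS3, a thrombospondin (2.63, limma adjusted p = 5.61e-07), were below 10 FPKM in aorta. Aorta replicate 2 as the only aorta library gave 6 of 9 too. Among 6 tested proteases and inhibitors (42 listed, 21 in the table), 2 were higher and none lower, with a median difference of 0.81. TIMP3, a matrix-bound metalloproteinase inhibitor, had 190.3, 224 and 203 FPKM in aorta and 151, 154 and 167 in kidney, without overlap (difference 3.40, SE 0.39, limma adjusted p = 9.86e-07). MMP16, a membrane-bound metalloproteinase, averaged 2.34 ± 0.399 FPKM in aorta and 3.63 ± 0.307 in brain (1.14, limma adjusted p = 1.85e-05). MMP14, the membrane collagenase, at 13.02, 20.7 and 26.7 FPKM in aorta, was not called (0.78, limma adjusted p = 0.0715).

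Receptors that hold cells to this matrix followed. Of 13 tested integrin, focal adhesion and caveola genes (43 listed, 25 in the table) 8 were higher and none lower, with a median difference of 1.49, and replicate 2 alone gave 8; 3 of the 8 passed the filter through aorta alone. ITGB1, the beta chain shared by most matrix integrins, had 82.1, 114 and 117 FPKM in aorta, against 52.4, 46.9 and 68.1 in heart. ILK, the kinase-like adaptor bound to that chain, had 217, 219.9 and 253 FPKM in aorta and 86.4, 133 and 83.7 in lung. Neither overlapped with any other library (ITGB1 difference 4.17, SE 0.64, limma adjusted p = 3.38e-05; ILK difference 2.09, SE 0.22, limma adjusted p = 2.41e-07). ITGBL1, an integrin-like secreted protein, had 13.8, 11.7 and 15.4 FPKM in aorta libraries, and between 0 and 1.36 FPKM, median 0, in the others (3.81, limma adjusted p = 2.00e-12). ITGA5, the fibronectin receptor chain, had 1.12, 2.69 and 2.23 FPKM from 2, 5 and 4 reads (1.49, limma adjusted p = 3.13e-07). SGCD, delta-sarcoglycan of smooth and striated muscle, was at 1.72 ± 0.281 FPKM in aorta (1.37, limma adjusted p = 3.90e-08), and the collagen receptor DDR2 at 8.06 ± 2.50 (2.04, limma adjusted p = 5.32e-06). CAVIN1, a caveola coat protein, had 53.9, 56.7 and 40.0 FPKM in aorta, against 35.4, 34.3 and 30.7 in lung (3.19, limma adjusted p = 4.87e-07). CAV1, the caveolin, averaged 20.4 ± 7.34 FPKM in aorta and 47.3 ± 16.7 in lung (2.38, limma adjusted p = 1.70e-04). The focal adhesion kinase PTK2 was not called (-0.34, limma adjusted p = 0.0698). The 3 genes that passed the filter through aorta alone were ITGBL1, ITGA5 and SGCD, so their calls follow in part from the filter.

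Wnt signalling was represented by 23 tested genes (57 listed, 30 in the table), and those called higher were receptors, secreted inhibitors and a receptor-removing enzyme. Of the 23, 8 were higher and 2 lower (9.58% and 8.19% of all genes), and the median difference was -0.09, near that of all genes. SFRP2, a secreted protein that binds Wnt ligands, had 468, 473 and 319 FPKM in aorta, against 21.7, 12.1 and 13.5 in lung, the largest difference among genes whose aorta libraries did not overlap the others (difference 6.58, SE 0.37, limma adjusted p = 3.09e-11). SFRP1, its relative, had 52.4, 49.98 and 17.8 FPKM in aorta and 68.2, 56.6 and 54.2 in kidney (1.91, limma adjusted p = 1.85e-04), so kidney was the higher of the pair. The receptor FZD2 had 47.2, 40.0 and 46.6 FPKM in aorta, and between 0 and 18.1 FPKM, median 2.47, in the others (difference 3.71, SE 0.48, limma adjusted p = 4.66e-06). FZD1 (1.28), FZD4 (1.36), FZD7 (1.66), FZD8 (1.40) and ZNRF3 (1.16), a ubiquitin ligase that removes frizzled receptors, were called higher as well, with limma adjusted p of 0.00535, 0.00147, 0.00231, 0.0112 and 0.0278. WNT11, a ligand, had 0, 1.85 and 1.93 FPKM in aorta and 35.4, 49.2 and 51.7 in stomach and was lower (-1.15, limma adjusted p = 0.0477), as was the T cell and Wnt transcription factor TCF7 (-1.01, limma adjusted p = 0.00102). With replicate 2 as the only aorta library 3 were higher (SFRP1, SFRP2 and FZD2) and 1 lower (TCF7). Several of these calls lay near a threshold and were lost when 1 library was left out, in most cases at a similar difference. Without aorta replicate 1, FZD8 (1.21, adjusted p = 0.0758), TCF7 (-0.94, adjusted p = 0.011) and WNT11 (-0.64, adjusted p = 0.359) were lost. Without aorta replicate 2, FZD1 (1.09, adjusted p = 0.051), ZNRF3 (0.80, adjusted p = 0.219), TCF7 (-0.94, adjusted p = 0.0117) and WNT11 (-1.40, adjusted p = 0.0588) were lost. Without aorta replicate 3, FZD8 (1.38, adjusted p = 0.0502), ZNRF3 (1.30, adjusted p = 0.0547) and WNT11 (-1.41, adjusted p = 0.0571) were lost. WNT11 and TCF7 were also lost without several libraries of other tissues.

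TGF-beta and bone morphogenetic protein (BMP) genes were higher at the level of ligands, the proteins that release or trap them, and the inhibitory SMADs. Of 25 tested genes (56 listed, 40 in the table) 11 were higher and none lower, with a median difference of 0.91; with replicate 2 alone 8 were higher. Among ligands, TGFB3 had 72.8, 90.5 and 93.9 FPKM in aorta, against 35.0, 36.6 and 24.5 in lung. INHBA, the subunit of activin A, had 10.7, 22.1 and 18.7 FPKM in aorta and 6.49, 1.15 and 1.27 in liver. Both were higher in aorta than in each tissue, without overlap (TGFB3 difference 4.19, SE 0.31, limma adjusted p = 3.41e-09; INHBA difference 3.54, SE 0.34, limma adjusted p = 8.16e-08). BMP4 had 679, 610.4 and 258 FPKM in aorta and 253, 298 and 329 in lung, with aorta replicate 3 inside the range of lung (2.97, limma adjusted p = 2.77e-07). BMP1, a protease that cleaves procollagen and frees growth factors, had 32.3, 38.8 and 37.8 FPKM in aorta and 7.12, 19.3 and 11.5 in lung, without overlap (2.79, limma adjusted p = 2.05e-04).

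Secreted antagonists were called too. FST, follistatin, which traps activin, had 10.2, 3.69 and 8.31 FPKM in aorta and 2.29, 2.67 and 3.30 in lung (1.82, limma adjusted p = 0.00109). Its relative FSTL1 had 1.38, 7.33 and 4.15 FPKM in aorta and 0.311, 2.02 and 0.298 in lung (1.85, limma adjusted p = 3.98e-05). NOG, noggin, which traps BMPs, had 2.52, 4.86 and 7.57 FPKM in aorta and 8.995, 8.13 and 8.80 in brain (1.26, limma adjusted p = 0.0232), so brain was higher. SMAD6, an inhibitor induced by the pathway, had 103, 86.1 and 78.0 FPKM in aorta, against 211, 188 and 219 in lung (2.88, limma adjusted p = 6.81e-08). SMAD7, of the same kind, had 248, 158 and 112 FPKM in aorta and 288, 199 and 246 in lung (1.08, limma adjusted p = 7.77e-04). Lung was thus above aorta on average for both inhibitors. The BMP target ID1 (1.48, limma adjusted p = 0.00504) and ID4 (1.68, limma adjusted p = 0.0025) were higher, and ID2 (0.91) and the shared mediator SMAD4 (-0.02) were not called. Against lung alone, 5 of the 25 were higher in aorta and 4 lower (4.65% and 8.50% of all genes). Leaving out aorta replicate 1 ended the calls of SMAD7 (0.78, adjusted p = 0.0221) and ID1 (1.23, adjusted p = 0.053), and leaving out aorta replicate 2 (1.23, adjusted p = 0.0823) or 3 (0.95, adjusted p = 0.165) that of NOG. In the Notch list (23 listed, 14 in the table), 1 of 6 tested genes was higher and 1 lower (9.58% and 8.19% of all genes). The ligand JAG1 had 27.2, 21.5 and 19.1 FPKM in aorta, against 16.4, 15.6 and 15.7 in lung, without overlap (difference 2.20, SE 0.35, limma adjusted p = 6.20e-05). HES5, a target of Notch, was listed at 0 in all 3 aorta libraries and at 43.2, 14.5 and 34.4 FPKM in brain (-1.15, limma adjusted p = 0.00456). Its call was lost without brain (-0.53, adjusted p = 0.131).

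Of 24 tested genes (49 listed, 33 in the table) of platelet-derived, fibroblast, vascular endothelial and insulin-like growth factor and hedgehog signalling, 9 were higher and none lower, with a median difference of 0.64, and replicate 2 alone gave 6. FGFR1, a fibroblast growth factor receptor, had 8.48, 7.27 and 10.4 FPKM in aorta, against 1.41, 4.73 and 2.98 in lung. HHIP, a decoy receptor that binds hedgehog proteins, had 9.45, 12.2 and 11.2 FPKM in aorta and 2.18, 5.67 and 3.13 in lung. Both were higher than in each tissue (FGFR1 2.31, limma adjusted p = 2.91e-06; HHIP 2.90, limma adjusted p = 6.75e-08). FGFR2 came behind lung, at 21.5 ± 4.49 FPKM in aorta and 30.0 ± 6.13 in lung (1.79, limma adjusted p = 9.78e-05). SMO, the hedgehog signal transducer, came behind kidney, at 17.1 ± 4.80 FPKM in aorta and 31.0 ± 5.47 in kidney (1.25, limma adjusted p = 0.00392). CCN1, a matricellular protein of stretched and injured vessels, had 434, 813 and 889 FPKM in aorta libraries, and between 5.29 and 366 FPKM, median 37.4, in the others, without overlap (difference 3.91, SE 0.65, limma adjusted p = 8.24e-05). Its relative CCN2 varied more, with 1.03, 8.95 and 15.5 FPKM in aorta and 0, 7.75 and 1.78 in lung (2.30, limma adjusted p = 0.00106). IGFBP7, a binding protein secreted by vessels, had 1161, 1350.0 and 1452 FPKM in aorta, and between 0 and 829 FPKM, median 123, in the others. Its difference of 4.40 (limma adjusted p = 0.00129) was 4.44 with replicate 2 alone but was not called there (limma adjusted p = 0.0887). PDGFC, a platelet-derived growth factor (1.18, limma adjusted p = 0.00853), was lost without aorta replicate 1 (1.04, adjusted p = 0.0614) or 3 (0.89, adjusted p = 0.0968). FGF18 (1.34, limma adjusted p = 0.0147) was lost without aorta replicate 1 (1.33, adjusted p = 0.0557) or 2 (0.84, adjusted p = 0.186). VEGFA, at 190.1 ± 29.5 FPKM in aorta and 833 ± 196 in lung, was not called (0.72, limma adjusted p = 0.018).

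NTF3, neurotrophin-3, a growth factor for sympathetic and sensory neurons, had the fourth largest difference among genes without overlap, with 102, 121 and 105 FPKM in aorta, against 15.1, 14.9 and 5.10 in heart (difference 5.01, SE 0.67, limma adjusted p = 7.33e-06). Its receptor NTRK3 had 26.4, 26.3 and 40.9 FPKM in aorta and 10.8, 9.60 and 9.17 in brain (difference 4.18, SE 0.20, limma adjusted p = 2.18e-12). Ligand and receptor lay above all 21 other libraries. NTRK3 was named after its values were seen. SCUBE3, a secreted protein that can act on TGF-beta receptors, had 10.2, 9.85 and 11.7 FPKM in aorta, and between 0 and 0.630 FPKM, median 0, in the others (3.38, limma adjusted p = 2.00e-12). It passed the filter through aorta alone, so its call follows in part from the filter. The intermediate filament of mesenchymal cells, VIM, had 246, 309 and 235 FPKM in aorta and 55.3, 115 and 100.1 in lung (4.998, limma adjusted p = 8.16e-08). PCDH7, a protocadherin, had 103, 104 and 151 FPKM in aorta and 40.9, 27.8 and 35.3 in heart (4.44, limma adjusted p = 5.10e-09). RASL12, a small GTPase of the Ras family, had 22.7, 40.4 and 55.4 FPKM in aorta and 10.2, 14.2 and 18.3 in lung (4.41, limma adjusted p = 1.15e-09). VIM, PCDH7 and RASL12 overlapped with no library of another tissue.

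Transcription factors of mesenchyme formed the longest list, with 114 genes, 86 of them in the table, and 66 tested. Of these 22 were higher and 3 lower, with a median difference of 0.41; replicate 2 alone gave 17 and 3. TWIST1, a basic helix-loop-helix factor of mesenchymal cells, had 121, 99.8 and 109.5 FPKM in aorta, against 2.66, 4.94 and 8.92 in lung. Its relative TWIST2 had 49.0, 28.1 and 38.4 FPKM in aorta and 17.8, 22.1 and 13.7 in lung. Aorta stood above all other libraries in both (TWIST1 difference 4.90, SE 0.54, limma adjusted p = 6.02e-07; TWIST2 difference 3.24, SE 0.49, limma adjusted p = 2.79e-05). OSR1, a zinc finger factor of connective tissue progenitors, had 106, 93.8 and 102 FPKM in aorta and 22.05, 11.9 and 3.41 in lung (difference 5.09, SE 0.46, limma adjusted p = 4.35e-08). The forkhead factor FOXC1, required in mice for the great vessels, had 27.8, 23.3 and 28.5 FPKM in aorta and 3.03, 1.57 and 4.34 in kidney (difference 4.07, SE 0.34, limma adjusted p = 1.63e-08). FOXC2, its close relative, had 1.66, 2.40 and 1.66 FPKM from 2, 3 and 2 reads and 0 in every other library. FOXP2 had 293, 355 and 343 FPKM in aorta and 108, 116 and 71.0 in stomach, without overlap (difference 4.13, SE 0.33, limma adjusted p = 8.07e-09). TWIST1, OSR1, FOXC1, FOXC2 and FOXP2 were the members higher than in each tissue. Of the 22 higher, 2 had passed the filter through aorta alone, FOXC2 among them.

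Other members had a level near or above that of aorta in another tissue. PRRX1, a homeobox factor of fibroblasts and smooth muscle, had 112, 71.4 and 99.2 FPKM in aorta and 67.5, 47.4 and 72.4 in heart (3.54, limma adjusted p = 2.61e-06). EBF3 averaged 22.7 ± 1.56 FPKM in aorta and 26.6 ± 6.55 in heart (2.58, limma adjusted p = 2.83e-05). MEIS1, a partner of HOX proteins, averaged 200.2 ± 35.7 FPKM in aorta and 348 ± 32.01 in lung (1.13, limma adjusted p = 1.86e-04). GATA6, a factor of smooth muscle, had 9.31, 20.5 and 7.32 FPKM in aorta and 5.66, 14.9 and 5.11 in stomach (2.46, limma adjusted p = 5.10e-06). NFIX had 199, 201 and 217 FPKM in aorta, above all other libraries by a small margin (1.09, limma adjusted p = 4.50e-08), and was 0.86, adjusted p = 5.62e-06 under TPM scaling, where the minimum difference of 1 was not reached. The 3 members lower in aorta were highest in stomach or kidney. FOXQ1 was listed at 0 in all aorta libraries and at 321, 322 and 471 FPKM in stomach (-3.23, limma adjusted p = 1.80e-05). SALL1 was also listed at 0 in aorta, and at 33.8, 28.6 and 22.6 FPKM in kidney (-2.17, limma adjusted p = 8.82e-06). IRX3 had 0, 0 and 0.855 FPKM in aorta and 24.6, 13.3 and 35.7 in kidney (-1.83, limma adjusted p = 8.16e-05). PKNOX2 (1.10, limma adjusted p = 0.0223) was lost without aorta replicate 1 (0.91, adjusted p = 0.128) or 3 (0.79, adjusted p = 0.182), TSHZ1 (1.10, limma adjusted p = 0.00844) without replicate 2 (0.87, adjusted p = 0.0826), and MEIS1 fell just under the minimum without replicate 3 (0.995, adjusted p = 0.00471). Against lung alone, 13 of the 66 were higher in aorta and 14 lower (4.65% and 8.50% of all genes).

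HOX genes, which give cells their position along the body axis, were mostly higher in aorta than in the mean of the other tissues. Of 39 genes 30 were in the table and 25 were tested; 19 were higher and none lower, with a median difference of 2.73, and replicate 2 alone gave 17. None was higher than in each tissue. Against heart, which lies beside the aorta, 21 of 25 were higher in aorta, against lung 15 and against stomach 18, with none lower in these comparisons. Among all genes, 16.2%, 4.65% and 10.8% were higher in aorta than in heart, lung and stomach. Against kidney 1 was higher and 12 lower (11.9% and 13.8% of all genes).

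HOXA2 had 71.5, 82.7 and 77.3 FPKM in aorta, against 43.7, 40.6 and 43.1 in lung (difference 4.03, SE 0.52, limma adjusted p = 5.27e-06). HOXA6 had 39.0, 37.6 and 39.0 FPKM in aorta and 12.2, 31.5 and 11.6 in kidney (difference 4.16, SE 0.37, limma adjusted p = 3.63e-08). Both lay above all other libraries. HOXA5 had 385, 356 and 435 FPKM in aorta and 675, 755 and 726 in lung, so lung was higher (3.57, limma adjusted p = 1.26e-05). HOXC8 had 70.8, 23.1 and 56.9 FPKM in aorta and 25.5, 33.6 and 4.598 in stomach (4.34, limma adjusted p = 1.93e-08). HOXC6 had 132, 118 and 133 FPKM in aorta and 151, 178 and 186 in kidney (4.88, limma adjusted p = 7.14e-08), and was not called against kidney alone (-0.42, limma adjusted p = 0.671). For HOXC9 and HOXC10 kidney was higher. HOXC9 had 27.8, 28.4 and 32.7 FPKM in aorta, against 90.0, 55.0 and 74.2 in kidney (4.05, limma adjusted p = 2.40e-13). HOXC10 had 39.0, 30.6 and 51.3 FPKM in aorta and 159, 133 and 157 in kidney (4.30, limma adjusted p = 1.92e-13). HOXC9 and HOXC10 were listed at 0 in all libraries of the other 6 tissues.

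Split by position in the cluster, a split chosen after the values were seen and therefore given with no test, the 9 tested genes numbered 9 to 13 were all lower in aorta than in kidney and had a median difference of -2.03. Among the 16 numbered 1 to 8, 1 was higher than in kidney (HOXA2, 3.38, limma adjusted p = 6.65e-04), 3 were lower (HOXB8, HOXD4 and HOXD8) and 12 were not called, with a median difference of 0.18. The highest mean over the 6 tissues other than aorta and kidney was under 1 FPKM for 7 of the 9 genes numbered 9 to 13 and for 2 of the 16 numbered 1 to 8. In cluster D aorta lay far below kidney: HOXD10 averaged 3.60 ± 3.40 FPKM in aorta and 324 ± 40.8 in kidney (SD, n = 3). HOXD8 averaged 12.5 ± 9.28 FPKM in aorta and 262 ± 25.1 in kidney, and HOXD11 was listed at 0 in aorta, against 12.9 ± 5.68 in kidney (SD, n = 3). HOXD9, with 20.6, 1.24 and 12.9 FPKM in aorta, was called on the mean of the others (2.00, limma adjusted p = 0.00162), but its difference was 0.03 with replicate 2 alone. HOX genes lie close together on both strands with antisense and readthrough transcripts, and whether counting used strand is not stated, so neighbouring genes may share counts.

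**Figure D4:**
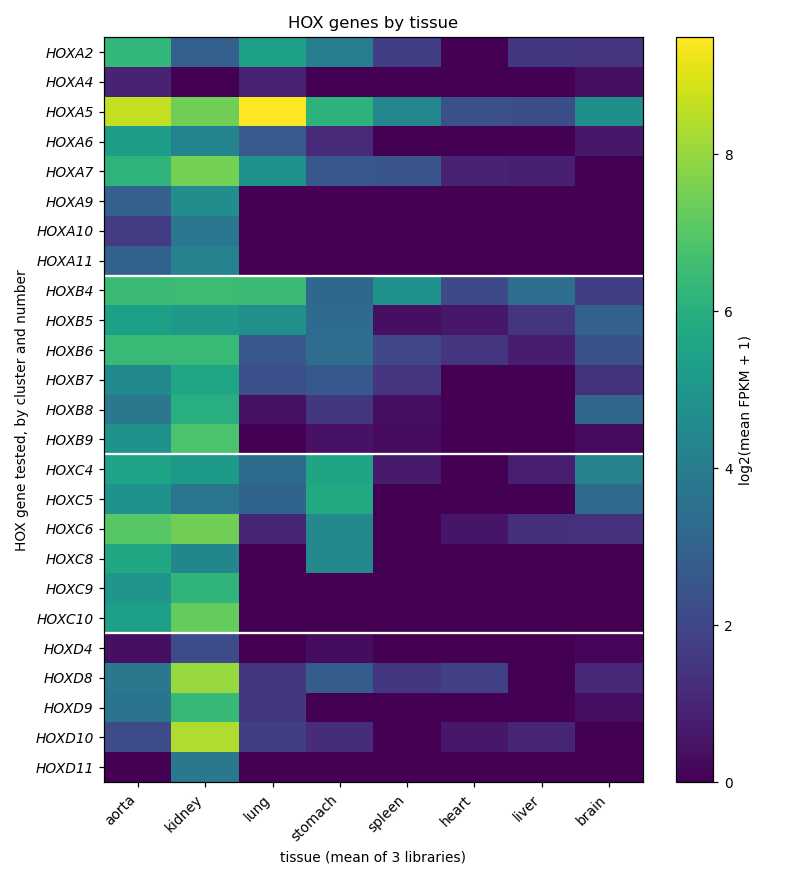
Mean level of 25 HOX genes on the log2(mean FPKM + 1) scale in aorta and 7 other tissues, ordered by cluster (white lines) and number. Genes numbered 9 to 11 of clusters A, B and C are above 0 in aorta and kidney and at or near 0 in the other 6 tissues, whereas lower numbers such as HOXA5 are also high in lung; cluster D is high in kidney.

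Lists for other cells of the dissected vessel showed how far each could be seen. Of 14 tested endothelial genes (61 listed, 25 in the table) 6 were higher and 1 lower, with a median difference of 0.68; replicate 2 alone gave 3 and 1. The 6 were TEK, EFNB2, NRP1, GATA2, KLF4 and FOXC2, the last of which passed the filter through aorta alone. EFNB2, an arterial ephrin, had 65.4, 62.6 and 54.4 FPKM in aorta, against 114, 127 and 155 in lung (2.25, limma adjusted p = 2.43e-08). TEK, the angiopoietin receptor, had 3.54, 7.79 and 3.03 FPKM in aorta and 18.6, 12.7 and 20.5 in lung (1.21, limma adjusted p = 0.00176). It missed the minimum difference without aorta replicate 2 (0.86, adjusted p = 0.041). Against lung, 1 of the 14 was higher in aorta and 5 were lower (4.65% and 8.50% of all genes). PROX1, the master factor of lymphatic endothelium and also of liver, was lower, with 0.492, 0.237 and 0 FPKM in aorta, and between 0.616 and 106 FPKM, median 6.68, in the others (-2.77, limma adjusted p = 9.91e-09). FLI1, also an endothelial and blood factor, was at 273, 139.8 and 163 FPKM in aorta libraries and was not called (0.42, limma adjusted p = 0.462). FLI1 lies opposite SENCR, and whether its reads came from the mouse gene or from the transgene was not tested. NRP1 (1.14, limma adjusted p = 0.0429) was lost without aorta replicate 2 (0.89, adjusted p = 0.217) or 3 (0.95, adjusted p = 0.19), and without several single libraries of other tissues at a similar difference. The summed level of the 25 genes was 409, 276 and 297 FPKM in aorta, inside the range of the others (50.5 to 1215), and KDR, FLT4, SOX18 and ESAM were listed at 0 in aorta. Of 13 pericyte genes 5 were in the table and none passed the filter.

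Of 10 tested fibroblast genes (30 listed) 6 were higher and 1 lower, with a median difference of 2.14. They share COL1A1, SFRP2, PRRX1 and LOXL1 with the lists above. FAP, a fibroblast surface protease, had 4.06, 5.60 and 3.78 FPKM in aorta and 0.412, 1.45 and 1.78 in stomach (2.00, limma adjusted p = 5.32e-06). CYGB, cytoglobin, had 27.5, 24.7 and 29.5 FPKM in aorta and 13.4, 24.3 and 27.2 in heart (2.28, limma adjusted p = 0.00499). DPP4, a surface peptidase, was lower (-2.02, limma adjusted p = 6.48e-05). The summed level of the 17 fibroblast genes in the table was 805, 787 and 644 FPKM in aorta, against 22.1 to 156 in the others, and PDGFRA was listed at 0 in aorta. These values moved with the matrix genes above, and the part of fibroblasts and of smooth muscle in each was not tested. Adipocyte genes (38 listed) were mixed, with 3 of 11 higher and 1 lower (9.58% and 8.19% of all genes). PPARG, the adipocyte nuclear receptor, had 15.7, 5.91 and 2.73 FPKM in aorta and 41.1, 22.1 and 15.7 in stomach (1.41, limma adjusted p = 0.0246). It was lost without aorta replicate 1 (0.84, adjusted p = 0.25) or 2 (1.48, adjusted p = 0.0672). CEBPA had 111, 65.4 and 63.3 FPKM in aorta and 427, 536 and 437 in liver, so liver was higher (2.23, limma adjusted p = 5.83e-05), and EBF2 was the third (1.51, limma adjusted p = 3.79e-05). PPARGC1A was lower (-1.18, limma adjusted p = 0.0118) and was lost without aorta replicate 2 (-0.77, adjusted p = 0.156). LPL and FASN were listed at 0 in aorta. The summed level of the 15 genes in the table was 198, 170.1 and 145 FPKM in aorta, inside the range of the others (45.2 to 787).

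The lists for heart muscle, skeletal muscle and neurons each held 1 gene called higher in aorta, of 16, 10 and 25 tested. Among all genes 9.58% were called higher and 8.19% lower, so 1 higher gene per list is near or below that share. Of 16 tested cardiomyocyte genes (36 listed, 17 in the table) 1 was higher and 4 lower, and MYH6, the cardiac myosin heavy chain, had 0, 0 and 0.812 FPKM in aorta and 5955, 4798 and 5630.4 in heart. TNNT2, TNNI3, TNNC1, TTN and MYBPC3 were listed at 0 in all aorta libraries. The 1 called higher, ACTC1, had 24.4, 40.4 and 94.3 FPKM in aorta and may share reads with the other actins. Its difference of 1.11 was -0.04, adjusted p = 0.908 with a pseudocount of 5, 1.198, adjusted p = 0.0617 without aorta replicate 2 and 0.60, adjusted p = 0.299 without aorta replicate 3. Of 10 tested skeletal muscle genes (35 listed, 20 in the table) 1, CASQ1, was higher (2.01, limma adjusted p = 1.99e-06) and 3 were lower. Neuron genes had a summed level of 98.8, 28.5 and 8.26 FPKM in aorta replicates 1, 2 and 3, against a median of 22.8 and a highest value of 9008 in the others. SNAP25, of synaptic vesicle fusion, had 31.4, 1.51 and 0 FPKM in aorta. ELAVL2, a neuronal RNA-binding protein, had 21.6, 0.730 and 0.758 FPKM in aorta. Replicate 1 thus carried most of both. Of 25 tested neuron genes (34 listed, 29 in the table) 1, ISL1, was higher (1.27, limma adjusted p = 0.0025) and 3 lower. Without aorta replicate 1 the difference of ISL1 missed 1 (0.95, adjusted p = 0.044). SYP, RBFOX3, NEFH and GAP43 were listed at 0 in aorta. SNAP25 was not called (-0.54) but was lower without aorta replicate 1 (-1.995, adjusted p = 4.10e-05).

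Schwann cell and glial genes had a summed level of 139, 37.8 and 83.0 FPKM in aorta, and between 2.30 and 12082 FPKM in the others. Of 7 tested (21 listed, 12 in the table) 2 were higher and 1, SOX2, was lower. FOXD3, at 7.52, 2.72 and 0.942 FPKM, was called at the threshold (1.16, limma adjusted p = 0.0479) and was lost without aorta replicate 1 (0.61, adjusted p = 0.383) and without many other single libraries, aorta replicate 2 (1.21, adjusted p = 0.113) among them. No gene was called for myeloid cells (3 tested of 29 listed), mesothelium (4 of 14), cartilage and bone (3 of 25) or erythroid cells and platelets (1 of 19). Lymphocyte genes were lower in 5 of 7 tested, of 25 listed; BCL11A, a B cell and neuronal factor, stood at an aortic level near 0, with 0.264, 1.02 and 0.264 FPKM in aorta and 281, 181 and 192 in spleen (-3.15, limma adjusted p = 1.50e-08). Epithelial genes were lower in 4 of 10 tested, of 32 listed, against 8.19% of all genes. ESRP1, FOXA1, FOXA2 and NKX2-1 were listed at 0 in all aorta libraries.

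Genes lower in aorta had the lowest mean of the 8 tissues in 153 of 349 cases, but 4 genes (0.0939%) were lower than in each tissue and 36 (0.845%) had all aorta libraries below all 21 others. ABHD17C, an enzyme that removes palmitate from proteins, had 6.12, 1.97 and 5.11 FPKM in aorta, and between 18.2 and 265 FPKM, median 113, in the others (difference -3.92, SE 0.22, limma adjusted p = 4.73e-11). TUBA4A, an alpha-tubulin, had 0.894, 1.72 and 1.79 FPKM in aorta, and between 6.72 and 85.7 FPKM, median 24.9, in the others (difference -3.40, SE 0.32, limma adjusted p = 6.75e-08). IPO11, a nuclear import receptor, had 1.57, 2.52 and 2.09 FPKM in aorta, and between 3.26 and 25.6 FPKM, median 13.4, in the others (-2.17, limma adjusted p = 1.47e-05). RPRD1B, a regulator of RNA polymerase II, had 3.76, 2.54 and 3.39 FPKM in aorta, and between 7.13 and 21.6 FPKM, median 11.2, in the others (-1.54, limma adjusted p = 1.82e-05). These 4 genes were the ones lower in aorta than in each tissue. STARD10, a lipid transfer protein, had 80.7, 86.8 and 113 FPKM in aorta and 7710.4, 7894 and 7906 in liver (-3.09, limma adjusted p = 1.31e-11). HOMER1, a scaffold of synapses, had 0.587, 0 and 0.588 FPKM in aorta and 35.2, 46.4 and 47.8 in brain (-2.43, limma adjusted p = 1.44e-05). Also among the 10 largest differences of genes without overlap were PLEKHA6 (-1.89), the clathrin adaptor subunit AP1G1 (-1.68) and the translation factor subunit EIF2S1 (-1.63), with limma adjusted p of 3.27e-06, 1.61e-07 and 1.44e-05.

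Mitochondrially encoded genes were called higher in aorta in 11 of 11 tested (30 listed, 13 in the table), 3 of which passed the filter through aorta alone, and this rested on replicates 1 and 3. ND4, a subunit of respiratory complex I, had 79, 2 and 44 reads in aorta replicates 1, 2 and 3, and at most 2 in any other library. COX1, a subunit of cytochrome oxidase, had 118, 2 and 29 reads, and at most 7 in any other library. CYTB, of complex III, had 29, 0 and 19 reads, and at most 2 elsewhere. Replicate 2 was thus in the range of the other tissues, heart included. With replicate 2 as the only aorta library none of the 11 was called, and 8 of the 11 differences were below 0, from -0.98 for ND1 to -0.10 for ND5; ND4 was at 1.40 (limma adjusted p = 0.274), COX1 at 1.32 (0.481) and ND2 at 1.91 (0.151). The calls of ND1, COX2, COX3, ATP6 and CYTB were lost when either library was left out. Without replicate 1 their differences were 1.79, 1.99, 2.51, 2.16 and 2.03, with the lowest adjusted p at 0.0962 for COX3. Without replicate 3 they were 2.13, 2.33, 2.42, 1.70 and 2.33, with the lowest adjusted p at 0.0796 for CYTB.

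Other lists also had fewer calls with replicate 2 alone. Cytosolic ribosomal protein genes were higher in 15 of 44 tested (71 listed), 14 of the 15 having passed the filter through aorta alone, and in 2 with replicate 2 alone. Their summed level was 26874, 26473 and 22422 FPKM in aorta, inside the range of the others (6575 to 79554). RPL7A, called higher than in each tissue, had 3, 0 and 2 reads in aorta replicates 1, 2 and 3, and a difference of -0.07 with replicate 2 alone. Immediate early and heat shock genes, which respond within minutes to many stimuli, were higher in 7 of 29 tested (49 listed), and in 2 with replicate 2 alone. FOS had 8.02, 3.31 and 10.3 FPKM in aorta and 3.25, 5.72 and 7.04 in stomach (2.02, limma adjusted p = 0.00352). JUN had 19.97, 33.5 and 28.2 FPKM in aorta and 20.6, 40.8 and 52.3 in lung (2.22, limma adjusted p = 0.00229). HSPA1A, a heat shock chaperone, had 5.02, 24.2 and 13.1 FPKM in aorta and 2.85, 0 and 7.72 in stomach (2.56, limma adjusted p = 0.00337). Aorta overlapped with that next tissue for all 3, while EGR1, IER2 and ZFP36 were listed at 0 in aorta and in nearly all other libraries. The early genes named here were chosen after their values were seen. The part of these features in the calls of vessel wall genes was not tested. With replicate 2 alone, and the same genes tested, 43 of the 197 called genes chosen for naming were no longer called and a further 11 changed sign. Leading contractile, matrix and mesenchymal genes had differences from replicate 2 alone of 5.22 for ACTA2, 4.44 for FBLN5, 4.58 for COL1A1, 4.28 for TGFB3 and 4.77 for TWIST1.

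**Figure D5:**
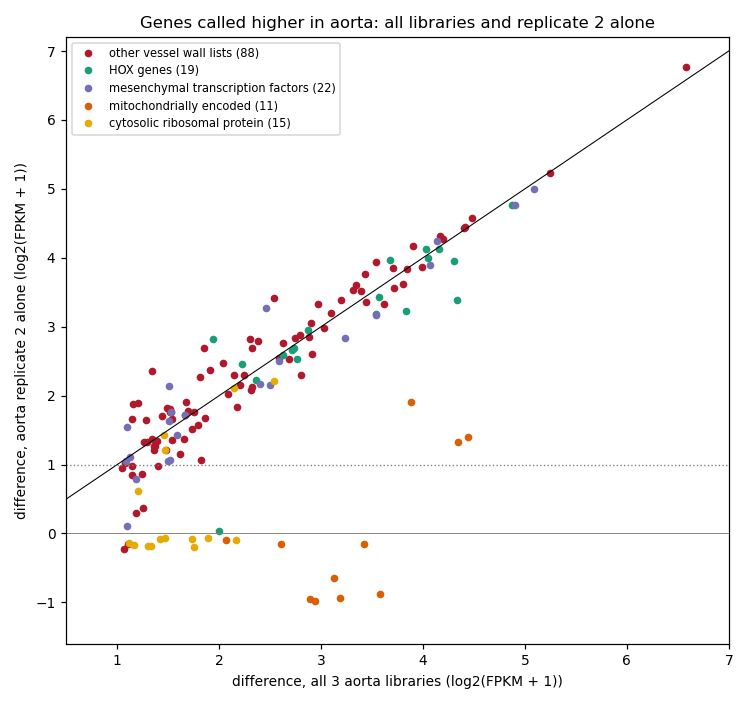
Difference between aorta and the other 7 tissue means, as log2(FPKM + 1), for genes called higher, from all 3 aorta libraries (x axis) and from aorta replicate 2 alone (y axis), with the line of equality and a dotted line at 1. Genes of the vessel wall lists (88), HOX genes (19) and mesenchymal transcription factors (22) lie near the line with exceptions such as HOXD9 (2.00 and 0.03); mitochondrially encoded genes (11) lie far below it.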

How the data were processed

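The libraries were made from total RNA extracted with TRIzol, per the labels' protocols. The FPKM values were deposited by the authors, 1 column per library; per the submitters' processing notes, fastp, HISAT2, HTSeq and the human build GRCh38.p13 were used, without versions, gene annotation or strand setting being stated. Every one of 7493 genes with a value was a whole multiple of 1 read within each library (relative tolerance 1e-06), which gave the read numbers used for depth and for voom. A gene above 0 in 1 library alone passed this check by construction and was set to 1 read.

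Values were analysed as log2(FPKM + 1) for genes at 1 FPKM or more in at least 3 of 24 libraries. limma 3.58.1 in R 4.3.3 fitted the 8 tissues' means with variances shrunk to a trend on level, and Benjamini-Hochberg adjustment of the 2-sided p-values ran over 4260 genes. A gene was higher than in each tissue when all 7 single contrasts were called. In a test on simulated data, 37.3% of 102 genes changed 2-fold and 99.0% of 98 genes changed 4-fold passed the adjusted p, with 6 calls among unchanged genes. The changed genes were drawn from well-read genes only. Apart from the change, each gene had the same mean in all 8 tissues, and the spread was fixed. These rates therefore do not carry over to genes with few reads or to genes that differ among the other tissues. Members and gene lists were chosen with earlier results of these data known. Genes are named if they were markers, among the 6 highest in aorta of a vessel wall list or called in it, among the 3 highest of another cell type's list, among the 12 largest gaps to the next tissue or the 10 largest differences without overlap in either direction, mitochondrially encoded, or SENCR or FLI1; members of a short count outside this rule were named after their values were seen, among them CYGB, FAP, DPP4, PPARG, PPARGC1A, EBF2, ISL1, ELAVL2, MYH6, RPL7A and the HOXD genes. Some genes are not reported here. The alternatives were other pseudocounts, filters, scalings, variance models, tissue sets and libraries left out. 2 of them, which left out aorta replicates 1 and 3 or replicate 1 while testing the same genes, were chosen after seeing the data, and the first of these is the fit called replicate 2 alone.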

Additional observations from a re-analysis of the deposited data

How the results depend on the processing

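Counts moved by more than 1.5 times under some settings. A pseudocount of 5 gave 221 higher, 133 lower and 2 lower than in each tissue; a pseudocount of 0.1 gave 39 higher and 11 lower than in each. Without a minimum difference 659 were higher, 894 lower and 21 lower than in each. TPM scaling gave 576 lower and 15 lower than in each, and voom on recovered reads 617 and 10. Taking out mitochondrially encoded genes and setting libraries to equal sums, 2 changes made together, gave 8 lower than in each. Genes lower than in each numbered 10 without brain and 16 without heart. With aorta replicates 1 and 3 left out, 268 were higher, 26 higher than in each and 8 lower than in each; with the same genes tested, the last 2 counts were 41 and 8, and 8 were lower than in each without replicate 1. Leaving out each library in turn gave 364 to 419 higher, 294 to 363 lower, 51 to 78 higher than in each and 4 to 8 lower than in each. The cause was not tested.

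The sign turned for these genes with aorta replicates 1 and 3 left out: SERPINH1 (-0.23), HTR1B (-0.15), ND1 (-0.98), ND3 (-0.16), ND5 (-0.10), COX2 (-0.94), COX3 (-0.87), ATP6 (-0.96), ATP8 (-0.15), CYTB (-0.65) and RPL7A (-0.070), and for ACTC1 with a pseudocount of 5 (-0.044). Of 197 called genes named by the rule or after their values were seen, 106 stayed called under every setting that tested them.

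Replicate numbers are shared between tissues, and libraries of the same number were weakly alike. After tissue means were removed, 20 of 24 libraries correlated best, on average, with libraries of their own number in other tissues. The median correlation was 0.024 for same-number pairs and -0.017 for other pairs, and 2 of 84 same-number pairs exceeded 0.1. Whether libraries of the same number share an animal or a batch was not tested, and the main fit did not model it. The fit with a replicate block gave 411 higher, 346 lower, 69 higher than in each and 4 lower than in each, and ended the calls of WNT11 (-1.15, adjusted p = 0.0513) and FOXD3 (1.16, adjusted p = 0.0557) among those named. Depth limits genes with few reads, whose changes the log2 scale with a pseudocount of 1 understates.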

Other observations

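Other genes that were higher in aorta than in each of the 7 tissues stood in none of the vessel wall lists; those named here were chosen after their values were seen. PRDM6, a transcriptional repressor of vascular smooth muscle, had 27.2, 35.8 and 45.5 FPKM in aorta, against 10.4, 15.0 and 14.5 in lung (difference 4.30, SE 0.19, limma adjusted p = 1.41e-12). PLCB4, the phospholipase through which contractile receptors release calcium, had 68.3, 87.7 and 81.4 FPKM in aorta and 23.8, 21.7 and 14.7 in lung (3.28, limma adjusted p = 5.61e-10). SPEG, a kinase of striated and smooth muscle, had 10.7, 9.04 and 14.5 FPKM in aorta and 5.46, 1.80 and 4.37 in heart (2.71, limma adjusted p = 2.90e-08). PDLIM3, an actinin-binding protein, had 10.5, 15.5 and 19.4 FPKM in aorta and 4.57, 4.02 and 8.67 in stomach (3.36, limma adjusted p = 5.10e-09). These 4 did not overlap with any other library.

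AEBP1, a collagen-binding protein, had 3.50, 3.38 and 2.92 FPKM in aorta and 1.46, 0 and 0 in kidney (1.91, limma adjusted p = 8.06e-07). CCDC80, a secreted matrix protein, had 2.94, 2.27 and 1.96 FPKM in aorta and 0, 0.902 and 0.695 in heart (1.63, limma adjusted p = 5.14e-08). CCDC80 passed the filter through aorta alone, so its call follows in part from the filter. The same may hold for other low genes such as AEBP1, since 21 of the 70 genes higher than in each tissue passed in this way. DNM3OS, the non-coding transcript that hosts microRNAs of mesenchyme, had 5.45, 9.93 and 11.2 FPKM in aorta and 3.54, 0.506 and 0.522 in lung (2.79, limma adjusted p = 1.02e-07), and its window held a CArG box. GJC1, a connexin of vascular smooth muscle, had 13.7, 17.2 and 14.3 FPKM in aorta and 4.01, 10.7 and 6.67 in lung (2.69, limma adjusted p = 1.44e-07).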
